A study of Mus musculus with 9 samples.

Results

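The genes described here are 44 mouse genes of the extracellular matrix and of the cells that make it: fibrillar and other collagens, the proteins of basement membranes, matricellular and elastic fibre proteins, collagen crosslinking enzymes, and markers of fibroblasts and mural cells. They were taken by name from a list, through their Ensembl identifiers, and are 44 of the 56923 genes in the count table. All 44 were found and all passed the filter on low counts, 0 of them through a single group alone.

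RNA was sequenced from kidneys of mice labelled wild type (WT) in 9 libraries, 3 in each of 3 groups. The sham group had surgery without ischaemia-reperfusion (IR) injury, and its treatment label is PBS. The kidneys labelled AKI_PBS came from mice with AKI, acute kidney injury, that were given PBS. Mice of the AKI_PTPi_mEVs group had AKI and were given extracellular vesicles from milk, filled with an siRNA that targets PTP1B, the phosphatase encoded by Ptpn1, whose role in the injured kidney the series addresses. No injured group labelled as given empty vesicles or a control siRNA is included, so the effect of the siRNA cannot be told apart from that of its carrier. The labels give no strain, age, sex, time after injury or batch. They also do not state whether replicates are different animals. The p-values therefore set group differences against the spread among these samples, which may not be the spread between animals. AKI_PTPi_mEVs replicate 2 has another spelling of the vesicles in its title, and its treatment label set its group.

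Library totals lay between 9467851 and 11389479 counts, of which the 44 genes took 22696 to 39891 per library. Their share of all counts was 0.269% ± 0.0468 (SD) in sham, 0.346% ± 0.0303 (SD) in AKI_PBS and 0.262% ± 0.0362 (SD) in AKI_PTPi_mEVs (n = 3 each). Levels are in CPM (counts relative to a library's total, adjusted with TMM factors), given in the order of replicates 1, 2 and 3. Fold changes are log2 values ± SE, and a gene was called when edgeR's quasi-likelihood test gave a Benjamini-Hochberg adjusted p under 0.05 over 17036 tested genes. Ptpn1 was at 90.1 ± 8.91 CPM in sham, 147 ± 23.8 CPM in AKI_PBS and 102 ± 6.94 CPM in AKI_PTPi_mEVs (SD). Libraries differed within groups across the whole list: sham replicate 3 was the lowest of its group for 39 of the 44 genes, AKI_PBS replicate 3 for 25, and AKI_PTPi_mEVs replicate 1 was the highest of its group for 37. Counts of the nuclear RNAs Malat1 and Neat1 made up 0.336% of counts in sham, 0.864% in AKI_PBS and 0.327% in AKI_PTPi_mEVs, while mitochondrial genes took 1.86%, 2.23% and 1.32%. Injured tubule markers were higher in AKI_PBS than in sham for 6 of 6 genes. Their summed levels were 24.7 to 34.1 CPM in sham, 2272 to 3370 CPM in AKI_PBS and 561 to 1766 CPM in AKI_PTPi_mEVs. AKI_PBS replicate 3 had the lowest sum of its group, with the injury marker Havcr1 at 104 CPM beside 1025 and 971 CPM. The markers did not all go this way in that library. Lcn2 and Krt20 were also lowest there, and Vcam1 lay between the others. Sox9 (3155 counts beside 1181 and 1149) and Cdkn1a (9271 counts beside 6142 and 6551) were highest there. Red blood cell markers were lower with vesicles than with PBS for 5 of 5 genes, with summed levels of 103 ± 17.7 CPM, 170 ± 75.4 CPM and 35.3 ± 13.8 CPM (SD) in sham, AKI_PBS and AKI_PTPi_mEVs. Over all tested genes, 27.8% were higher in AKI_PBS than in sham and 25.8% were lower with vesicles than with PBS. The part of these library and marker differences in the results was not tested. Summed levels of proximal tubule markers lay at 8811 to 10916, 2586 to 4220 and 6379 to 10407 CPM in sham, AKI_PBS and AKI_PTPi_mEVs, so the markers of the labelled tissue were present.

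A basement membrane is a sheet of collagen IV and laminin networks, bridged by nidogens and the proteoglycan perlecan, on which epithelial and endothelial cells rest. Collagen IV is assembled from different chains: Col4a1 and Col4a2 build the network found in nearly all basement membranes, while Col4a3, Col4a4 and Col4a5 build the network of the glomerular filter and some tubules, and its loss causes Alport syndrome. The interstitium between tubules holds fibrillar collagens, proteoglycans and elastic fibres made by fibroblasts and pericytes, and its expansion is renal fibrosis.

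The Col4a1 and Col4a2 genes lie head to head in the mouse genome. Their start windows are shown because both rose with injury while Col4a3, Col4a4 and Col4a5 fell. The part of the genes' arrangement in these values was not tested. Each window runs from 250 bases before to 50 bases after the annotated start, is from RefSeq on GRCm38.p6, and is written along the gene's own strand. The Col4a1 window is chr8:11312777-11313076 (minus strand) and the Col4a2 window is chr8:11312555-11312854 (plus strand). Capitals mark the 78 bases that both windows cover, read from opposite strands.
Col4a1: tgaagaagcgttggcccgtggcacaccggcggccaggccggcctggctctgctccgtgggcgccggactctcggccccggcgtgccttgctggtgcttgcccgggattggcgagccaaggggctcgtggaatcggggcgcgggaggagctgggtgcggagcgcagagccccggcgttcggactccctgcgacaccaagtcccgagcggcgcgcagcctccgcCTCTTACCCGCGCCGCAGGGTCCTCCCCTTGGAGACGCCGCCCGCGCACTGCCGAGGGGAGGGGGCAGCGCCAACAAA
Col4a2: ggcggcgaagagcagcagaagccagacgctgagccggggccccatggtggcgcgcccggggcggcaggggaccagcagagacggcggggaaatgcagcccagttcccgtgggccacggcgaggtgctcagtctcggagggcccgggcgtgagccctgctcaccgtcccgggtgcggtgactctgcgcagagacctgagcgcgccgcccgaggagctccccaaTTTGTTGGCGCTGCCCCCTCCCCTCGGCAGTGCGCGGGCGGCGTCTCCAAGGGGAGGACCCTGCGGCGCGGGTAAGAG
The windows of 2 chains of the other network are chr1:82586800-82587099 (minus strand) for Col4a4 and chrX:141475169-141475468 (plus strand) for Col4a5. Capitals in the Col4a5 window mark a GC box (GGGCGG), and the Col4a4 window holds none on either strand. The Col4a1 and Col4a2 windows also hold GC boxes, which are not marked as such.
Col4a4: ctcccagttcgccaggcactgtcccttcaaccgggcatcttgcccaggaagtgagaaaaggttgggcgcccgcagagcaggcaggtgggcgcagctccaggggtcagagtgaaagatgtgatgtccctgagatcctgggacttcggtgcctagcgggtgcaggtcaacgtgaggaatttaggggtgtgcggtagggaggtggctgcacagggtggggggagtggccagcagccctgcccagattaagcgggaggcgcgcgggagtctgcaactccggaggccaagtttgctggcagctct
Col4a5: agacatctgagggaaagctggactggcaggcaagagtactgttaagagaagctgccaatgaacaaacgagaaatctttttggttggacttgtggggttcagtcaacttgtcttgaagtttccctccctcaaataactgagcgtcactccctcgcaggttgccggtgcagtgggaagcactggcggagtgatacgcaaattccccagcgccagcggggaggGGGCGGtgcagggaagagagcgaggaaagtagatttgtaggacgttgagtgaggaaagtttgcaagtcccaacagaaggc
Col4a3 had no window in the table used. G and C made up 74.0% of the Col4a1 window, 73.7% of the Col4a2 window, 63.3% of the Col4a4 window and 52.7% of the Col4a5 window, against a median of 52.7% over all windows. Of the 44 genes, 27 had a window, 32 windows in all. Among those 32, searched on both strands, a GC box was present in 18 (35.7% of all 32851 windows hold one), CCAAT in 10 (37.4%), TATAAA in 5 (13.6%), the AP-1 letters TGACTCA in 1 (5.2%) and the SMAD letters GTCTAGAC in 0 (0.213%). These matches describe the letters in the windows and no test was made of them.

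In the injured kidneys, the basement membrane genes Col4a1, Col4a2, Col18a1, Lama5, Lamc1 and Nid1 and the crosslinking enzymes Lox and Loxl1 rose, Col4a3, Col4a4 and Col4a5 fell, and none of the 5 fibrillar collagens was called. AKI_PBS against sham asks what the injury with PBS changed. Of the 44 genes 13 were higher, 9 lower and 22 not called, with a median log2 fold change of 0.06, against 0.03 over all tested genes. Among all tested genes 55.7% were called (27.8% higher and 27.9% lower), a share near that of the 22 calls among 44, so the number of calls did not set the list apart. By class, 3 of 6 elastic fibre and crosslinking genes, 3 of 8 laminin, nidogen and perlecan genes, 2 of 5 collagen IV chains, 2 of 5 matricellular genes, 2 of 6 fibroblast and mural cell genes and 1 of 6 other collagens were higher. Lower were 3 collagen IV chains, 2 other collagens, 2 of 3 small leucine-rich proteoglycans, Nid2 and Fbln5.

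**Figure D1:**
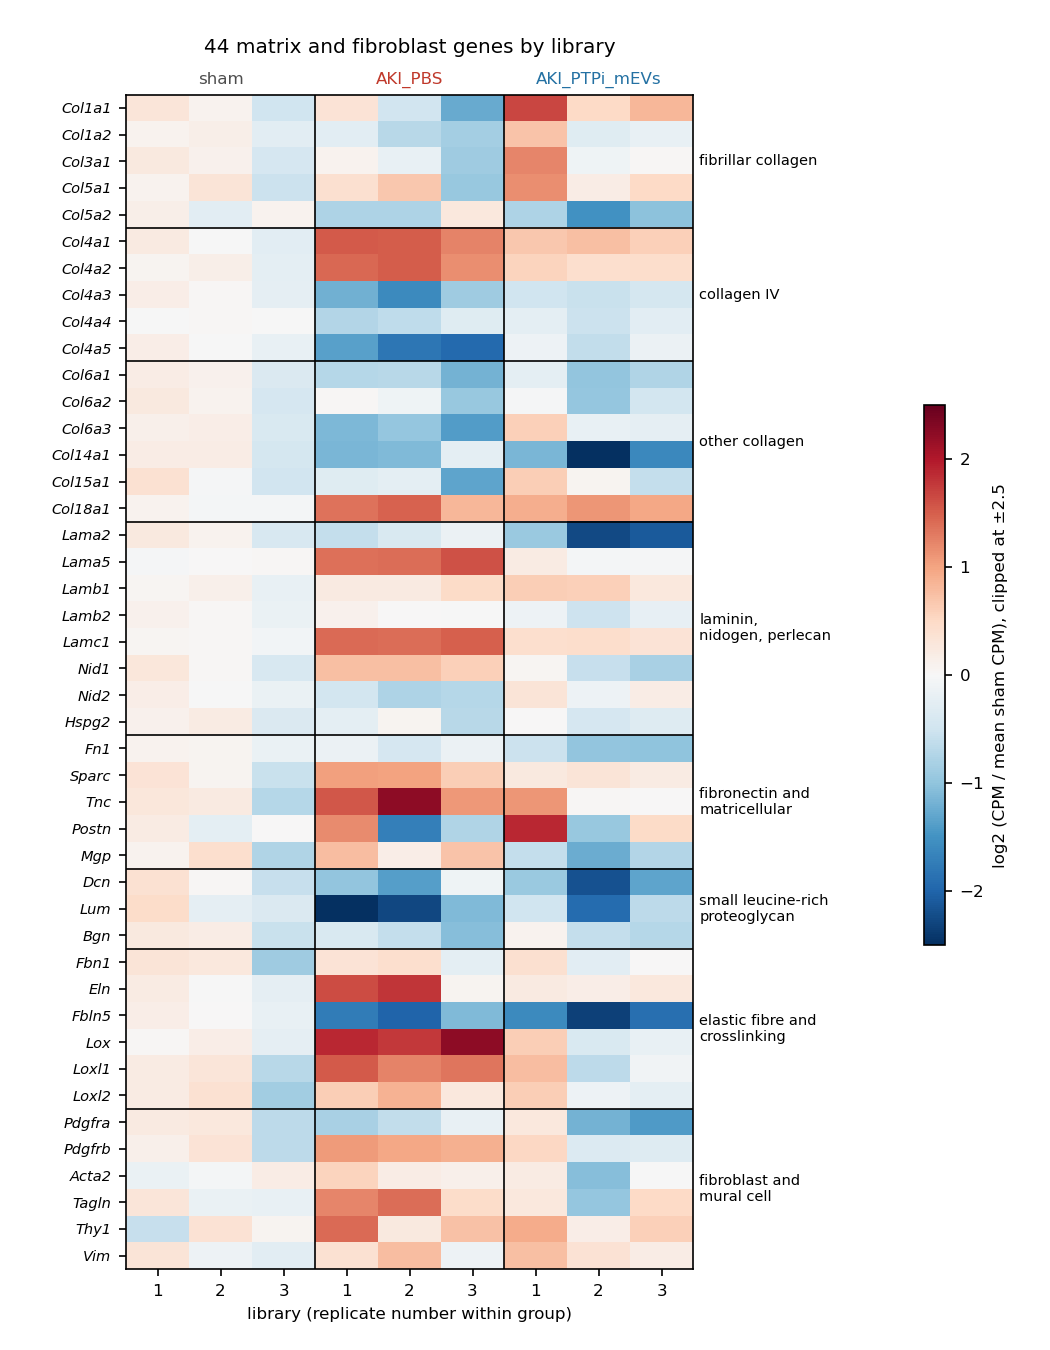
Heat map of log2 (CPM / mean sham CPM), clipped at ±2.5, for the 44 genes (rows, by class) in the 9 libraries (columns, by group and replicate number). Collagen IV splits into Col4a1 and Col4a2, which are red in AKI_PBS, and Col4a3, Col4a4 and Col4a5, which are blue there, and AKI_PTPi_mEVs replicate 1 is redder than replicates 2 and 3 in 37 of the 44 rows.

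The loaded vesicles were compared with PBS in injured kidneys. Here 6 of the 44 genes were higher, 17 lower and 21 not called, with a median log2 fold change of -0.29, against -0.03 over all tested genes. The 23 calls are 52.3% of the list, beside 51.1% of all tested genes (25.4% higher and 25.8% lower). Against sham, AKI_PTPi_mEVs had 5 genes higher, 6 lower and 33 not called. These 11 calls are 25.0% of the list, beside 13.2% of all tested genes (7.43% higher and 5.79% lower). Each pair of these comparisons shares a group, and AKI_PBS enters the first and the second with opposite signs, so their values are given side by side and no overlap between them is read as a result. Scaled by library totals instead of TMM factors, the median over all genes was 0.11, -0.13 and -0.04 in AKI_PBS against sham, AKI_PTPi_mEVs against AKI_PBS and AKI_PTPi_mEVs against sham. The calls over all genes were then 5250 higher and 4301 lower in the first, and 3757 higher and 5048 lower in the second, against 4734 and 4754, and 4320 and 4391, with TMM factors. Members' changes are to be read against these shifts, and 0 of their called values changed sign under any alternative. In whole tissue, fewer cells of a type and less RNA per cell cannot be told apart.

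**Figure D2:**
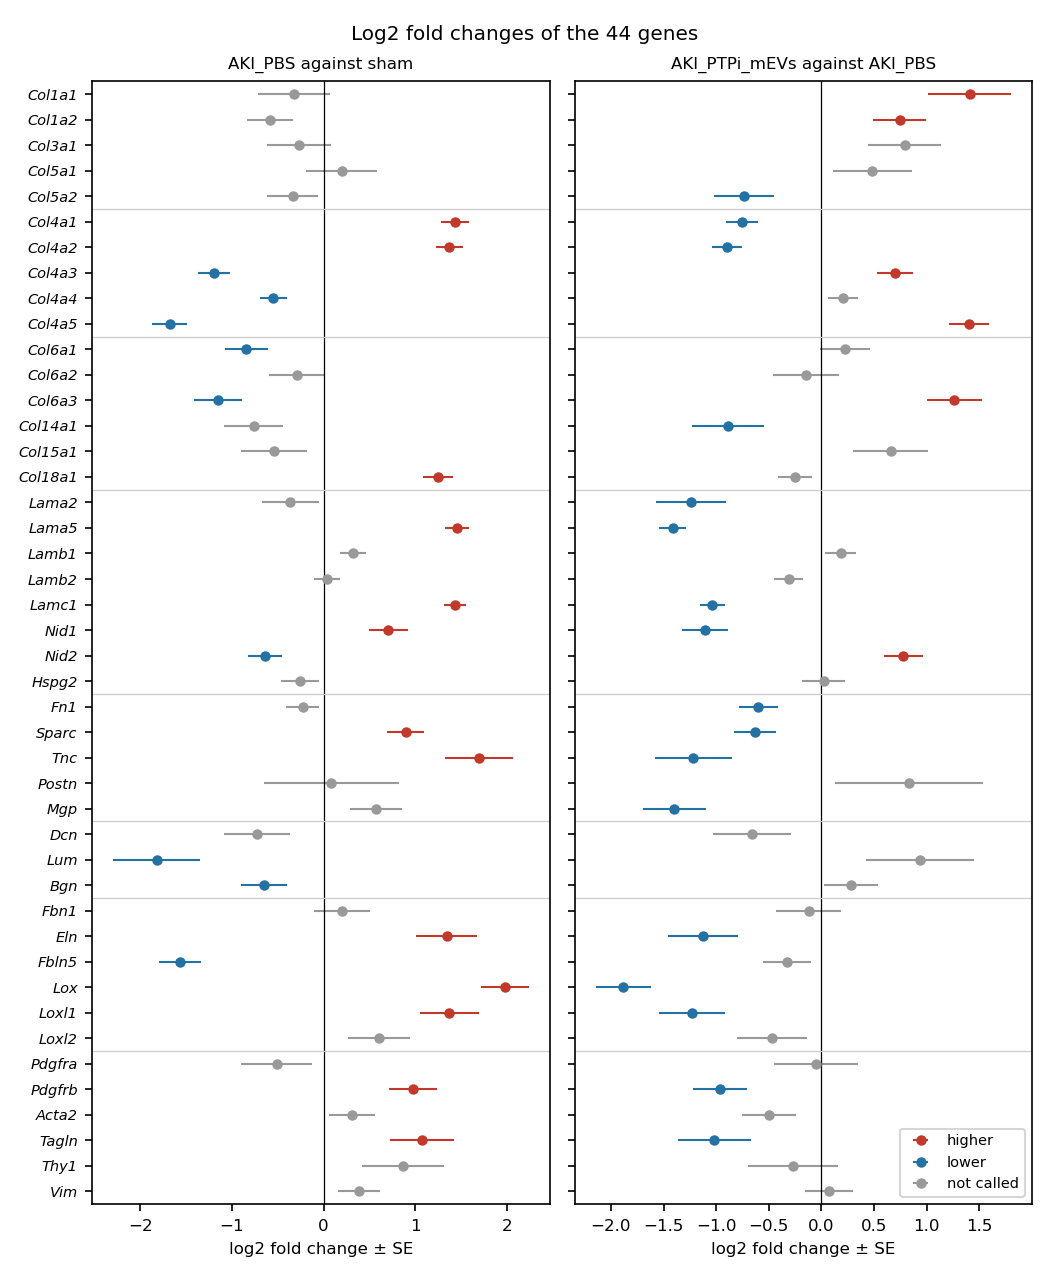
Log2 fold changes (points) ± SE (bars) of the 44 genes in AKI_PBS against sham (left) and AKI_PTPi_mEVs against AKI_PBS (right), coloured by the call. The left panel shows 13 genes higher and 9 lower, the right panel 6 higher and 17 lower, and the panels share the AKI_PBS libraries.

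The collagen IV chains separated by network. Col4a1 (ENSMUSG00000031502.12) was at 172, 147 and 124 CPM in sham, 425, 423 and 350 CPM in AKI_PBS and 237, 249 and 224 CPM in AKI_PTPi_mEVs. The 3 groups did not overlap, with AKI_PBS highest and sham lowest. It rose by 1.43 ± 0.15 in AKI_PBS against sham (adjusted p = 7.35e-06). With vesicles Col4a1 was lower than with PBS (-0.75 ± 0.15, adjusted p = 0.00104) and higher than in sham (0.68 ± 0.15, adjusted p = 0.0107). Col4a2 (ENSMUSG00000031503.14), its partner chain, was at 113, 119 and 91.7 CPM in sham, 290, 307 and 241 CPM in AKI_PBS and 158, 145 and 146 CPM in AKI_PTPi_mEVs. Its groups did not overlap either and stood in the same order. The changes of Col4a2 were 1.37 ± 0.14 with injury (adjusted p = 7.56e-06), -0.90 ± 0.14 for vesicles against PBS (adjusted p = 0.000243) and 0.47 ± 0.14 for vesicles against sham (adjusted p = 0.0447). The difference of vesicles from sham was not called for Col4a1 without sham replicate 2 (0.68) or without AKI_PTPi_mEVs replicate 2 (0.63), and not for Col4a2 without any single one of the 6 libraries of that comparison (0.37 to 0.55).

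The chains of the other network moved the opposite way. Col4a3 (ENSMUSG00000079465.9) was at 554, 501 and 425 CPM in sham, 215, 164 and 266 CPM in AKI_PBS and 349, 334 and 364 CPM in AKI_PTPi_mEVs. Sham was highest, AKI_PBS lowest, and no 2 groups overlapped. It fell by 1.20 ± 0.17 with injury (adjusted p = 9.21e-05) and was higher with vesicles than with PBS (0.70 ± 0.17, adjusted p = 0.00465). Vesicles against sham gave -0.50 ± 0.17, which was not called (adjusted p = 0.0737) but was without AKI_PBS replicate 2 or 3 (-0.49 in both). This difference was also called with DESeq2 (-0.50), no low-count filter (-0.49) and only the groups compared (-0.52). Col4a5 (ENSMUSG00000031274.17) was at 54.1, 48.0 and 42.7 CPM in sham, 18.9, 13.7 and 12.5 CPM in AKI_PBS and 44.4, 31.7 and 43.3 CPM in AKI_PTPi_mEVs. The AKI_PBS libraries lay below all others, while sham and AKI_PTPi_mEVs overlapped. Col4a5 fell by 1.68 ± 0.19 with injury (adjusted p = 1.44e-05) and was higher with vesicles than with PBS (1.40 ± 0.19, adjusted p = 7.8e-05). Col4a4 fell with injury by 0.55 ± 0.15 (adjusted p = 0.00628), and its difference between vesicles and PBS was not called (0.20 ± 0.15, 95% interval -0.15 to 0.56).

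**Figure D3:**
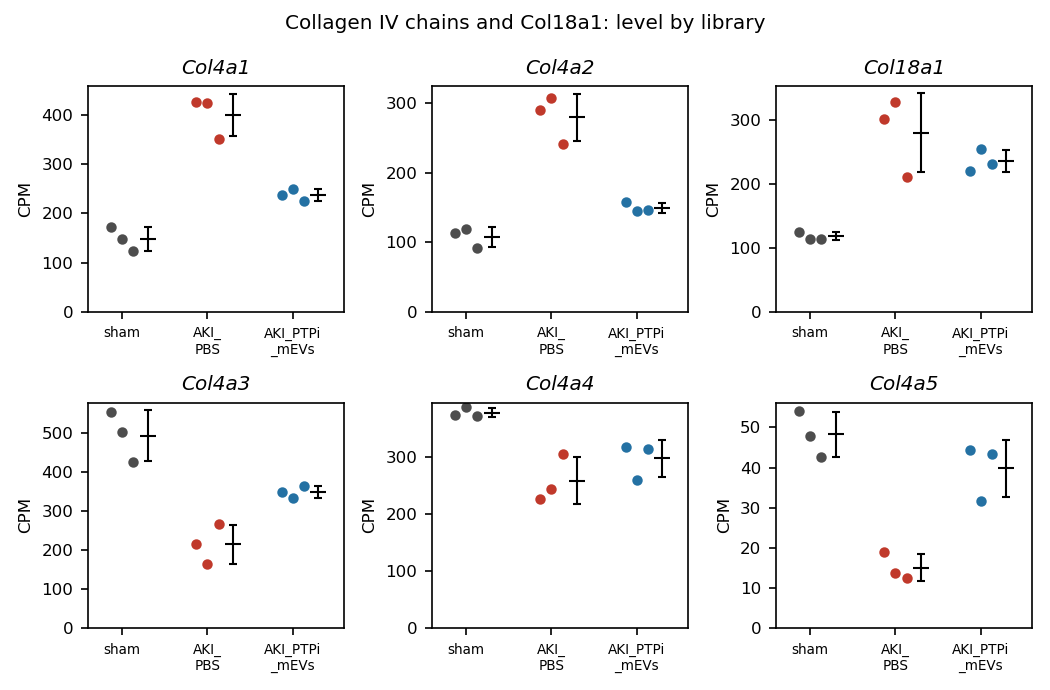
CPM of the 5 collagen IV chains and Col18a1 in each library (points, by group), with the mean ± SD (bars, n = 3). Col4a1 and Col4a2 are highest in AKI_PBS, Col18a1 is above sham in both injured groups, and Col4a3 and Col4a5 are lowest in AKI_PBS. Col4a4 has its lowest mean in AKI_PBS, where its libraries overlap with those of AKI_PTPi_mEVs.

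Set against one another per length of merged exons, the chains changed their proportion. The ratio of the summed CPM per kb of Col4a1 and Col4a2 to that of Col4a3, Col4a4 and Col4a5 was 0.407, 0.401 and 0.362 in sham, 2.20, 2.48 and 1.46 in AKI_PBS and 0.777, 0.882 and 0.717 in AKI_PTPi_mEVs. The 3 groups did not overlap, with the vesicle group between sham and AKI_PBS, and AKI_PBS replicate 3 had the lowest ratio of its group. The means were 0.390 ± 0.0242, 2.05 ± 0.532 and 0.792 ± 0.0839 (SD, n = 3), with no test made of the ratio. Per kb, Col4a3 had the second highest level of the 44 genes in sham, at 49.5 ± 6.52 CPM per kb (SD), after Sparc at 64.6 ± 19.1 CPM per kb (SD). In AKI_PBS the level of Col4a3 was 21.6 ± 5.11 CPM per kb (SD), rank 8, and that of Col4a1 53.5 ± 5.73 CPM per kb (SD), rank 2. Exon lengths are from a GRCm38 annotation and the build of the counts is not settled, so levels per kb carry that limit.

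Podocytes and distal tubules are known sources of the Col4a3, Col4a4 and Col4a5 network. Of 10 podocyte markers 4 were higher and 2 lower in AKI_PBS against sham (60% called, beside 55.7% of all tested genes), with summed levels of 328 to 391 CPM in sham, 396 to 515 CPM in AKI_PBS and 353 to 368 CPM in AKI_PTPi_mEVs, so the podocyte list as a whole did not fall with these chains. Of 6 distal nephron markers 4 were lower (66.7% called), with summed levels of 3734 to 4368 CPM, 1850 to 3278 CPM and 3293 to 3766 CPM. The part of either in the chains' changes was not tested.

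**Figure D4:**
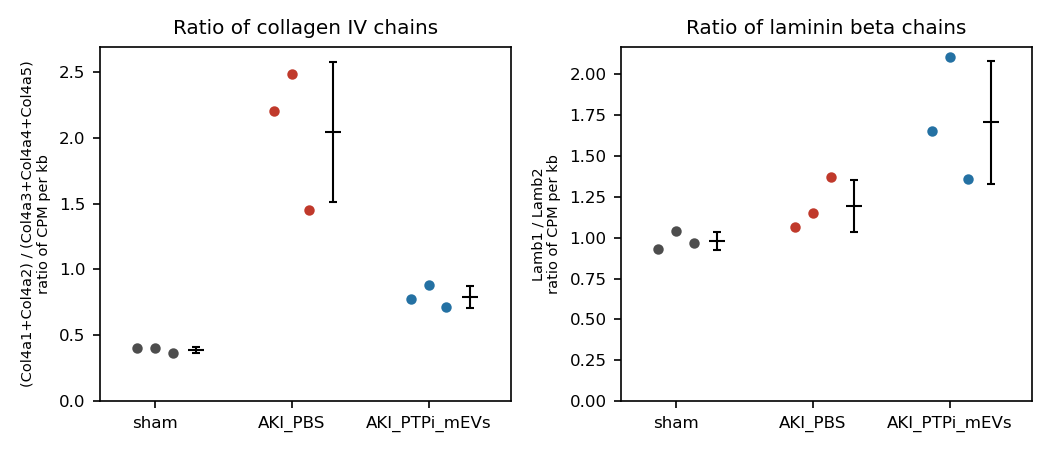
Ratios of CPM per kb in each library (points, by group) with the mean ± SD (bars, n = 3): collagen IV chains on the left, laminin beta chains on the right. The collagen IV ratio is 0.362 to 0.407 in sham, 1.46 to 2.48 in AKI_PBS and 0.717 to 0.882 in AKI_PTPi_mEVs, and the laminin beta ratio is highest in 2 of the 3 AKI_PTPi_mEVs libraries.

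Among the laminins, heterotrimers of an alpha, a beta and a gamma chain, Lama5 and Lamc1 rose. Lama5 (ENSMUSG00000015647.10), the main alpha chain of adult kidney basement membranes, was at 103, 106 and 107 CPM in sham, 272, 279 and 315 CPM in AKI_PBS and 121, 101 and 103 CPM in AKI_PTPi_mEVs. The AKI_PBS libraries stood above all others, and sham and vesicle libraries overlapped. Lama5 rose by 1.45 ± 0.13 with injury (adjusted p = 2.04e-06) and was lower with vesicles (-1.41 ± 0.13, adjusted p = 4.19e-06), leaving 0.04 ± 0.13 against sham (adjusted p = 0.868, 95% interval -0.27 to 0.35). Lamc1 (ENSMUSG00000026478.15), the common gamma chain, was at 30.5, 30.1 and 28.0 CPM in sham, 79.4, 77.3 and 83.6 CPM in AKI_PBS and 39.7, 39.8 and 37.5 CPM in AKI_PTPi_mEVs. Its 3 groups were apart from each other. The changes of Lamc1 were 1.44 ± 0.12 (adjusted p = 1.46e-06), -1.04 ± 0.12 (adjusted p = 2.17e-05) and, against sham, 0.40 ± 0.12 (adjusted p = 0.0441). The last was not called without any single sham or AKI_PTPi_mEVs library or without AKI_PBS replicate 2 (0.37 to 0.44). Nor was it with relative log expression size factors (0.39), library totals (0.37), limma voom (0.40), or no (0.41) or a stricter (0.36) low-count filter. Of 18 alternatives, 4 kept this call.

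The beta chains differed from these. Lamb1 and Lamb2 were not called in AKI_PBS against sham (0.32 ± 0.14 and 0.04 ± 0.14) or in vesicles against PBS (0.18 ± 0.14 and -0.31 ± 0.14). With library totals, Lamb1 was called in the first (0.39) and Lamb2 in the second (-0.42). Per kb, the ratio of Lamb1 to Lamb2 was 0.931, 1.04 and 0.968 in sham, 1.06, 1.15 and 1.37 in AKI_PBS and 1.65, 2.11 and 1.36 in AKI_PTPi_mEVs. Every AKI_PBS ratio was above every sham ratio, and the vesicle ratios overlapped with AKI_PBS, with means of 0.980 ± 0.0560, 1.20 ± 0.159 and 1.71 ± 0.377 (SD, n = 3). Against sham Lamb1 was higher with vesicles (0.50 ± 0.14, adjusted p = 0.037), a call that was lost without any single sham library or without AKI_PTPi_mEVs replicate 1 or 2 (0.43 to 0.57). Lama2 (ENSMUSG00000019899.18), an alpha chain of muscle and mesangium, was at 11.1, 9.95 and 7.11 CPM in sham, 6.22, 7.20 and 8.48 CPM in AKI_PBS and 4.96, 1.96 and 2.20 CPM in AKI_PTPi_mEVs. Vesicle libraries were below all others. Lama2 was not called with injury (-0.36 ± 0.31) and was lower with vesicles than with PBS (-1.24 ± 0.33, adjusted p = 0.00767) and than in sham (-1.60 ± 0.33, adjusted p = 0.00845).

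The linkers between the networks went opposite ways. Nid1 (ENSMUSG00000005397.9), the nidogen of most basement membranes, was at 48.5, 40.6 and 30.3 CPM in sham, 67.2, 67.1 and 60.5 CPM in AKI_PBS and 40.9, 26.5 and 22.8 CPM in AKI_PTPi_mEVs. AKI_PBS was above both other groups, which overlapped. Nid1 rose by 0.71 ± 0.21 (adjusted p = 0.013), a call lost without sham replicate 3 (0.54), and was lower with vesicles than with PBS (-1.11 ± 0.22, adjusted p = 0.00101). Its relative Nid2 fell with injury by 0.64 ± 0.18 (adjusted p = 0.00945) and was higher with vesicles than with PBS (0.78 ± 0.18, adjusted p = 0.0033). Hspg2, which encodes perlecan, was not called in either comparison (-0.26 ± 0.21 and 0.02 ± 0.21). Endothelial markers, 14 genes of cells that also lay down basement membrane, had 2 higher and 3 lower with injury and 5 lower with vesicles against PBS, 35.7% called in each, below the 55.7% and 51.1% of all tested genes. Their summed level was 654 to 876 CPM in sham, 553 to 870 CPM in AKI_PBS and 505 to 772 CPM in AKI_PTPi_mEVs, and their part was not tested.

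Col18a1 (ENSMUSG00000001435.16), a basement membrane collagen whose end fragment is endostatin, was at 125, 115 and 114 CPM in sham, 302, 329 and 211 CPM in AKI_PBS and 221, 255 and 231 CPM in AKI_PTPi_mEVs. Both injured groups lay above sham and overlapped each other. It rose by 1.25 ± 0.16 with injury (adjusted p = 4.18e-05) and was above sham with vesicles by 1.0 ± 0.16 (adjusted p = 0.00242). The difference between vesicles and PBS was not called (-0.25 ± 0.16, adjusted p = 0.208), except without AKI_PBS replicate 3 (-0.42). Among the 5 genes higher with vesicles than in sham (Col4a1, Col4a2, Col18a1, Lamb1 and Lamc1), Col18a1 was the one whose call held under all 18 alternatives.

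Of the 5 other collagens, 2 chains of collagen VI fell with injury. Col6a3 (ENSMUSG00000048126.17), a chain of the beaded filaments around cells, was at 14.3, 14.7 and 10.1 CPM in sham, 5.96, 6.69 and 4.95 CPM in AKI_PBS and 19.5, 11.5 and 11.1 CPM in AKI_PTPi_mEVs. The AKI_PBS libraries were below all others. Col6a3 fell by 1.15 ± 0.26 (adjusted p = 0.0024) and was higher with vesicles than with PBS (1.26 ± 0.26, adjusted p = 0.00151). Col6a1, another chain of the same trimer, fell by 0.84 ± 0.23 with injury (adjusted p = 0.00797) and was not called for vesicles against PBS (0.22 ± 0.24); Col6a2 was not called in any comparison. Col14a1, a collagen that sits on fibril surfaces, was not called with injury (-0.76 ± 0.32, adjusted p = 0.0613), but was without AKI_PBS replicate 3 (-1.11), sham replicate 3 (-0.95), AKI_PTPi_mEVs replicate 1 (-0.77) or AKI_PTPi_mEVs replicate 2 (-0.80). Against sham it was lower with vesicles (-1.65 ± 0.34, adjusted p = 0.00857). Against PBS its value was -0.89 ± 0.34 (adjusted p = 0.0464), and the call was lost without AKI_PBS replicate 3 (-0.53), sham replicate 1 or 2 (-0.87), or AKI_PTPi_mEVs replicate 2 (-0.57) or 3 (-0.89). Col15a1, of the zone beneath basement membranes, was not called in any comparison (0.66 ± 0.36 for vesicles against PBS). The exceptions were vesicles against PBS with no low-count filter (0.70) and with a replicate block (0.64).

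None of the 5 fibrillar collagens, the load-bearing fibrils of scar, was called in AKI_PBS against sham, although Col1a2 and Col5a2 were called lower under some alternatives. Col1a1 (ENSMUSG00000001506.11), a chain of type I collagen, was at 52.4, 45.5 and 30.4 CPM in sham, 54.0, 30.6 and 17.8 CPM in AKI_PBS and 136, 60.6 and 75.5 CPM in AKI_PTPi_mEVs. Sham and AKI_PBS overlapped, the vesicle libraries were above both, and vesicle replicate 1 was the highest library. The change with injury was -0.33 ± 0.39 (adjusted p = 0.504, 95% interval -1.28 to 0.63), an interval that spans both directions. Col1a1 was higher with vesicles than with PBS (1.41 ± 0.39, adjusted p = 0.0117), a call lost without vesicle replicate 1 (1.01). Against sham it gave 1.08 ± 0.39 (adjusted p = 0.0926), called without AKI_PBS replicate 1 (1.09).

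Col3a1 (ENSMUSG00000026043.19), the type III collagen of young and reticular fibrils, was at 43.2, 39.1 and 27.2 CPM in sham, 39.0, 32.1 and 19.8 CPM in AKI_PBS and 85.3, 34.1 and 37.4 CPM in AKI_PTPi_mEVs. All 3 groups overlapped, and vesicle replicate 1 stood far above the rest. It was not called with injury (-0.27 ± 0.35) or for vesicles against PBS (0.79 ± 0.35, adjusted p = 0.0774), but the latter was called without AKI_PBS replicate 1 (1.02), AKI_PTPi_mEVs replicate 2 (1.04) or replicate 3 (1.0). Col1a2, the second chain of type I collagen, was higher with vesicles than with PBS (0.74 ± 0.25, adjusted p = 0.0241), a call lost without vesicle replicate 1 (0.36), AKI_PBS replicate 2 (0.69) or AKI_PBS replicate 3 (0.63). With injury Col1a2 gave -0.58 ± 0.25 (adjusted p = 0.0609), called without AKI_PBS replicate 1 (-0.77) or AKI_PTPi_mEVs replicate 1 (-0.59) or 2 (-0.61). It was also called lower with DESeq2 (-0.59, adjusted p = 0.047), with no low-count filter (-0.62) and with only the groups compared (-0.58). Col5a2, a chain of the type V collagen that sets fibril diameter, was lower with vesicles than with PBS (-0.73 ± 0.28, adjusted p = 0.0453) and than in sham (-1.07 ± 0.28, adjusted p = 0.0264). The first call was lost without AKI_PBS replicate 3 (-0.29), any sham library (-0.72), or vesicle replicate 2 (-0.54) or 3 (-0.74), and the second without any library of those groups except vesicle replicate 1 (-1.19 to -0.91). Without AKI_PBS replicate 3 Col5a2 was called lower with injury (-0.78). Col5a1, the other type V chain, was not called in any comparison.

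With both AKI_PBS replicate 3 and AKI_PTPi_mEVs replicate 1 left out, the values of vesicles against PBS were 0.69 for Col1a1 and 0.24 for Col1a2, and neither was called. In the same comparison Col5a2 also lost its call (-0.47), while Loxl2 (-0.94), Acta2 (-0.83) and Lamb2 (-0.41) were then called lower. AKI_PTPi_mEVs replicate 1 also had the highest summed level of mesothelium and capsule markers, 107 CPM, where the other vesicle libraries had 26.2 and 46.5 CPM, sham 33.3 to 50.7 CPM and AKI_PBS 5.83 to 16.8 CPM. Of that list Muc16 was at 0 in all 9 libraries and Lrrn4 at no more than 0.259 CPM. The part of these cells in the type I collagen values was not tested.

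Of the 3 enzymes that crosslink collagen and elastin, Lox and Loxl1 rose with injury. Lox (ENSMUSG00000024529.15), lysyl oxidase, was at 5.19, 5.77 and 4.37 CPM in sham, 18.8, 17.5 and 24.1 CPM in AKI_PBS and 7.80, 3.93 and 4.51 CPM in AKI_PTPi_mEVs. The AKI_PBS libraries stood well above all others, and sham and vesicles overlapped. Lox rose by 1.98 ± 0.26 (adjusted p = 4.63e-05) and was lower with vesicles than with PBS (-1.88 ± 0.26, adjusted p = 8.94e-05), with 0.09 ± 0.27 against sham (adjusted p = 0.863). Loxl1 (ENSMUSG00000032334.11), the family member tied to elastin, was at 19.2, 20.6 and 10.4 CPM in sham, 48.2, 39.6 and 42.3 CPM in AKI_PBS and 28.7, 10.7 and 15.8 CPM in AKI_PTPi_mEVs. AKI_PBS was again above both other groups. Its changes were 1.37 ± 0.32 with injury (adjusted p = 0.00306) and -1.23 ± 0.32 for vesicles against PBS (adjusted p = 0.00659). Loxl2, which acts on collagen IV, gave 0.60 ± 0.33 and -0.47 ± 0.33 and was called in neither. With AKI_PBS replicate 3 and AKI_PTPi_mEVs replicate 1 both left out, Loxl2 was called lower with vesicles than with PBS (-0.94).

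The proteins of the elastic fibre did not follow one pattern. Eln (ENSMUSG00000029675.13), elastin itself, was at 15.2, 12.9 and 11.2 CPM in sham, 40.8, 45.1 and 13.8 CPM in AKI_PBS and 15.2, 14.7 and 15.7 CPM in AKI_PTPi_mEVs. AKI_PBS replicate 3 lay among the sham and vesicle libraries, so the groups overlapped. Eln rose by 1.34 ± 0.34 (adjusted p = 0.00479) and was lower with vesicles than with PBS (-1.13 ± 0.33, adjusted p = 0.0138), the latter not called without AKI_PBS replicate 1 (-0.94) or 2 (-0.84). Fbln5 (ENSMUSG00000021186.10), fibulin-5, which guides elastic fibre assembly, was at 128, 114 and 99.6 CPM in sham, 33.8, 28.5 and 52.8 CPM in AKI_PBS and 37.9, 22.7 and 30.8 CPM in AKI_PTPi_mEVs. Both injured groups were far below sham and overlapped each other. Fbln5 fell by 1.57 ± 0.23 with injury (adjusted p = 0.000101) and was below sham with vesicles by 1.90 on the log2 scale (-1.90 ± 0.23, adjusted p = 0.000494), while vesicles against PBS gave -0.33 ± 0.23 (adjusted p = 0.249). Fbn1, the microfibril protein fibrillin-1, was not called in any comparison.

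**Figure D5:**
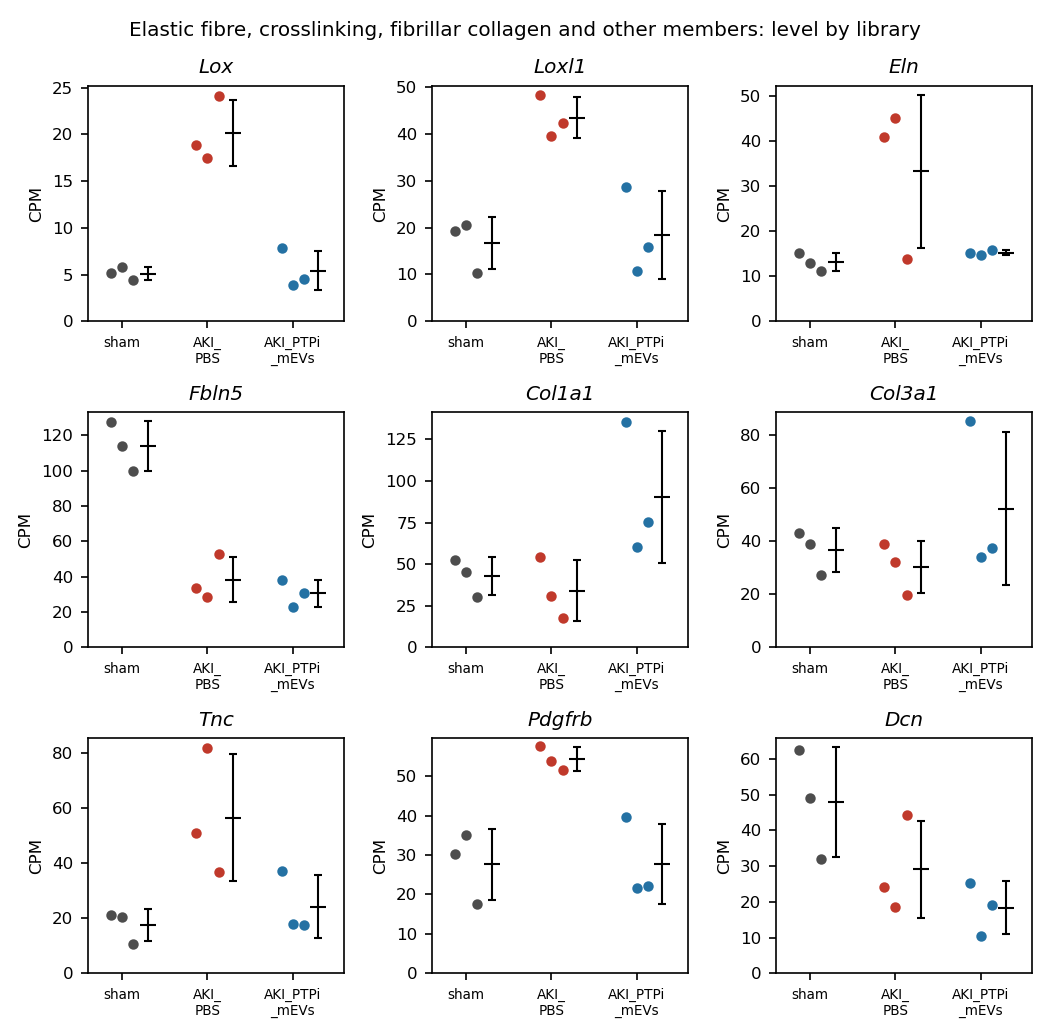
CPM of 9 genes in each library (points, by group) with the mean ± SD (bars, n = 3). Lox and Loxl1 are highest in the 3 AKI_PBS libraries, Eln in 2 of them, Fbln5 is low in all 6 injured libraries, and AKI_PTPi_mEVs replicate 1 is the highest library for Col1a1 and Col3a1.

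Of the matricellular proteins, which signal from the matrix rather than bear load, Tnc and Sparc rose. Tnc (ENSMUSG00000028364.16), tenascin-C, was at 21.1, 20.5 and 10.7 CPM in sham, 50.7, 81.8 and 36.8 CPM in AKI_PBS and 37.3, 17.8 and 17.6 CPM in AKI_PTPi_mEVs. AKI_PBS was above sham, while vesicle replicate 1 lay within the AKI_PBS range. Tnc rose by 1.70 ± 0.37 (adjusted p = 0.00235) and was lower with vesicles than with PBS (-1.22 ± 0.36, adjusted p = 0.0155), a call lost without AKI_PBS replicate 2 (-0.85) or vesicle replicate 2 (-1.01) or 3 (-1.02). Sparc, a collagen-binding glycoprotein with the highest level per kb of the 44 genes in every group, rose by 0.89 ± 0.20 (adjusted p = 0.0021) and was lower with vesicles (-0.63 ± 0.20, adjusted p = 0.0178), the latter not called without AKI_PBS replicate 1 (-0.55) or 2 (-0.57) or vesicle replicate 3 (-0.59). Fn1 (ENSMUSG00000026193.16), fibronectin, was at 24.1, 23.5 and 20.1 CPM in sham, 20.5, 16.8 and 20.5 CPM in AKI_PBS and 15.5, 11.4 and 11.2 CPM in AKI_PTPi_mEVs. Sham and AKI_PBS overlapped, and the vesicle libraries were below both. It was not called with injury (-0.23 ± 0.18) and was lower with vesicles than with PBS (-0.60 ± 0.18, adjusted p = 0.0145) and than in sham (-0.83 ± 0.18, adjusted p = 0.0107). Neither call held without vesicle replicate 2 (-0.50 and -0.76), and the first was also lost without vesicle replicate 3 (-0.50) and the second without sham replicate 2 (-0.79).

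Mgp (ENSMUSG00000030218.3), matrix Gla protein, an inhibitor of calcification, was at 11.1, 13.9 and 6.20 CPM in sham, 17.8, 11.6 and 17.0 CPM in AKI_PBS and 6.88, 4.37 and 6.27 CPM in AKI_PTPi_mEVs. Sham overlapped with both injured groups, and the vesicle libraries were below AKI_PBS. Mgp gave 0.57 ± 0.28 with injury, called without sham replicate 2 (0.82), and was lower with vesicles than with PBS (-1.40 ± 0.30, adjusted p = 0.00179); against sham it gave -0.83 ± 0.30, called without sham replicate 3 (-1.08). Postn, periostin, had the largest SE of the 44 genes, with AKI_PBS libraries at 5.79, 0.772 and 1.5 CPM and vesicle libraries at 9.36, 1.31 and 3.52 CPM. It was not called in any comparison (0.08 ± 0.73 with injury), although it was for vesicles against PBS without AKI_PBS replicate 1 (2.08).

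Of 3 small leucine-rich proteoglycans, which coat collagen fibrils, Lum and Bgn fell. Lum (ENSMUSG00000036446.6), lumican, was at 2.84, 1.77 and 1.63 CPM in sham, 0.346, 0.429 and 0.972 CPM in AKI_PBS and 1.47, 0.546 and 1.32 CPM in AKI_PTPi_mEVs. Every sham library was above every injured one. Lum fell by 1.82 ± 0.48 (adjusted p = 0.00572) on 64 counts in sham and 20 in AKI_PBS, and vesicles against PBS gave 0.94 ± 0.51, called without AKI_PBS replicate 3 (1.51). Bgn, biglycan, fell by 0.65 ± 0.25 (adjusted p = 0.0444), a call lost without AKI_PBS replicate 2 (-0.67) or 3 (-0.48), sham replicate 1 (-0.53) or 2 (-0.56), and with library totals (-0.57). Dcn, decorin, was not called with injury (-0.72 ± 0.36, adjusted p = 0.108) but was without AKI_PBS replicate 3 (-1.16). With vesicles Dcn was lower than in sham (-1.38 ± 0.37, adjusted p = 0.0314), a call lost without sham replicate 1 (-1.14) or 2 (-1.36) or vesicle replicate 2 (-1.12) or 3 (-1.40).

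Interstitial fibroblast markers chosen outside the 44 genes were mostly lower with injury as well. Of 10 listed 7 passed the filter, 1 of them, the transcription factor Foxd1, through AKI_PBS alone, the group where it was high. The other 6 were lower in AKI_PBS than in sham, where 27.9% of all tested genes were lower and 55.7% were called. Their summed level was 54.4 to 82.3 CPM in sham, 29.4 to 32.0 CPM in AKI_PBS and 39.6 to 64.6 CPM in AKI_PTPi_mEVs. Whether this list accounts for the values of Lum, Bgn, Fbln5 or the collagen VI chains was not tested.

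The receptors and contractile proteins of fibroblasts and mural cells were mixed. Pdgfrb, the PDGF receptor of pericytes, rose by 0.98 ± 0.26 (adjusted p = 0.00617) and was lower with vesicles than with PBS (-0.96 ± 0.26, adjusted p = 0.0076). Pdgfra, the receptor of interstitial fibroblasts, was not called in any comparison (-0.51 ± 0.39 with injury); without vesicle replicate 1 it was lower with vesicles than with PBS (-0.76) and than in sham (-1.28). Acta2 (ENSMUSG00000035783.10), smooth muscle actin and the classic myofibroblast marker, was at 81.6, 88.5 and 103 CPM in sham, 135, 104 and 100 CPM in AKI_PBS and 105, 43.6 and 90.5 CPM in AKI_PTPi_mEVs. All 3 groups overlapped. It was not called with injury (0.31 ± 0.25, 95% interval -0.31 to 0.93) or for vesicles against PBS (-0.50 ± 0.25), the latter called without vesicle replicate 1 (-0.74).

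Tagln (ENSMUSG00000032085.6), the actin-binding protein transgelin, was at 5.0, 3.63 and 3.56 CPM in sham, 9.51, 10.6 and 5.57 CPM in AKI_PBS and 4.86, 2.07 and 5.72 CPM in AKI_PTPi_mEVs. AKI_PBS was above sham and overlapped with vesicles. It rose by 1.08 ± 0.35 (adjusted p = 0.0185), a call lost without AKI_PBS replicate 2 (0.89) or sham replicate 2 (0.99) or 3 (0.98), and was lower with vesicles (-1.02 ± 0.35, adjusted p = 0.0266), lost without AKI_PBS replicate 1 (-0.93) or 2 (-0.83) or vesicle replicate 2 (-0.68). Genes on the opposite strand cover 67.9% of Tagln's exon bases, and 20.1% of those of Fbn1, and the strand setting of the counting is not given in the sources used here. Vim (ENSMUSG00000026728.10), the intermediate filament vimentin, was at 38.6, 28.1 and 25.8 CPM in sham, 40.1, 52.7 and 28.1 CPM in AKI_PBS and 51.7, 39.8 and 35.3 CPM in AKI_PTPi_mEVs. The groups overlapped and Vim was not called (0.39 ± 0.23 with injury). The exceptions were with injury, without AKI_PBS replicate 3 alone (0.59) or without it and AKI_PTPi_mEVs replicate 1 (0.59). Thy1, a surface protein of perivascular fibroblasts, was not called at 0.392 to 1.56 CPM. Of 11 other mural and mesangial markers 3 were higher and 2 lower with injury (45.5% called, beside 55.7%), with summed levels of 472 to 558 CPM in sham, 532 to 612 CPM in AKI_PBS and 377 to 484 CPM in AKI_PTPi_mEVs, and their part in the values of Pdgfrb and Tagln was not tested.

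Genes around these in the pathway were read from 4 further lists. Of 28 tested genes of TGF-beta and PDGF signalling, 18 were higher and 3 lower with injury (75% called, beside 55.7% of all tested genes, median 0.93 against 0.03). These pathways drive matrix synthesis, but the list also holds inhibitors of TGF-beta signalling, such as Smad7 and Skil. Its counts therefore do not say whether signalling rose or fell. With vesicles against PBS 3 were higher and 14 lower (60.7% called, beside 51.1%, median -0.66 against -0.03). Ccn2, connective tissue growth factor, rose by 2.05 ± 0.25 and was at -2.98 ± 0.26 with vesicles against PBS. The ligand Pdgfa rose by 1.58 ± 0.18 and was at -1.40 ± 0.18, and the signal transducer Smad3 rose by 1.64 ± 0.18 and was at -1.56 ± 0.18. All 6 values were called. Tgfb1 was below the filter, at 0.203 to 1.15 CPM.

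Of 22 tested matrix proteases and inhibitors 7 were higher and 4 lower with injury, and 3 higher and 9 lower with vesicles against PBS, so that the called shares were near the 55.7% and 51.1% of all tested genes. Timp1, an inhibitor of metalloproteinases, was at 0.392, 0.186 and 0.102 CPM in sham, 18.2, 21.4 and 8.31 CPM in AKI_PBS and 7.34, 8.30 and 7.36 CPM in AKI_PTPi_mEVs. All injured libraries were above all sham libraries. Timp1 rose by 6.06 ± 0.48, on few counts in sham, and was at -1.06 ± 0.31 with vesicles against PBS, both called. Mmp14, a membrane-bound collagenase, rose by 2.54 ± 0.22 and was at -2.07 ± 0.21 with vesicles against PBS, both called, and the gelatinase Mmp2 was not called in any comparison.

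Of 23 tested genes of collagen synthesis and processing 4 were higher and 5 lower with injury (39.1% called, below 55.7% of all tested genes), and 7 higher and 5 lower with vesicles against PBS (52.2%, near 51.1%). Of these genes Adamts3, a procollagen-cleaving protease, passed the filter through AKI_PBS alone and was not called. P4ha1, the prolyl hydroxylase that stabilises the triple helix, fell by 1.24 ± 0.15 (adjusted p = 1.9e-05) and was higher with vesicles than with PBS (1.71 ± 0.15). Serpinh1, the collagen chaperone HSP47, was not called with injury (-0.37 ± 0.17) and was higher with vesicles than with PBS (1.16 ± 0.17, adjusted p = 0.00016). Plod2, the lysyl hydroxylase of crosslink sites, rose by 1.13 ± 0.17 and was lower with vesicles (-0.99 ± 0.17). Of 41 other matrix genes 6 were higher and 18 lower with injury (58.5% called, near 55.7%), and 14 higher and 6 lower with vesicles against PBS (48.8%, near 51.1%). Lama1, a laminin alpha chain, fell by 1.61 ± 0.20 and was at 1.55 ± 0.20, and Tinag, a tubular basement membrane protein, fell by 1.61 ± 0.20 and was at 1.59 ± 0.20, all 4 values called.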

How the data were processed

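The deposited table holds whole-number read counts per gene for 9 kidney libraries; STAR and HTSeq were the authors' tools, per the submitters' processing notes, whose build is the human GRCh38.p14, while the identifiers are all mouse ones. The build is therefore not settled, and the filters and strand setting of the counting were not found in the labels. The 44 genes, the gene lists and the rule for named genes (calls of at least 1 on the log2 scale, and Col1a1, Col3a1, Col4a1, Col4a3, Fn1, Acta2 and Vim; per further list the 4 smallest adjusted p, with Timp1, Tgfb1, Ccn2 and Mmp2; some genes the rule names are not reported here) were chosen with earlier results of these data known. Values of other members are given by class or in short. Columns were matched to samples by name.

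The counts were tested with edgeR 4.0.16 (R 4.3.3). After filterByExpr with the groups given, 17036 genes were kept and scaled by TMM. A robust glmQLFit took all 9 libraries at once, 1 mean for each group, with 6 residual degrees of freedom. Groups were compared with glmQLFTest and Benjamini-Hochberg adjustment over all tested genes. The fit was checked on simulated counts in which few genes changed, as many up as down. That check does not cover scaling where many genes change. Totals of 9467851 to 11389479 counts limit precision for genes of few counts. Levels per kb use merged exon lengths of a GRCm38 annotation. Alternatives were library totals, relative log expression size factors, DESeq2 1.42.0, limma voom 3.58.1, no and a stricter low-count filter, only the groups compared, a replicate block, and each library left out. Leaving out AKI_PBS replicate 3 and AKI_PTPi_mEVs replicate 1 together was added after seeing the data. Figures were drawn with matplotlib 3.10.9.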

Additional observations from a re-analysis of the deposited data

How the results depend on the processing

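Over 18 alternatives, 19 of the 22 members called in AKI_PBS against sham, 14 of the 23 in AKI_PTPi_mEVs against AKI_PBS and 4 of the 11 in AKI_PTPi_mEVs against sham kept their call in every one, and 8, 9 and 6 uncalled members gained one in at least 1 alternative. Of 2365 member values under the alternatives, called and uncalled together, 70 uncalled ones had the other sign and 0 called ones did. The count of members higher in AKI_PTPi_mEVs than in sham, 5 as reported, was 2 with library totals, 2 with the stricter low-count filter and 2 with AKI_PBS replicate 3 and AKI_PTPi_mEVs replicate 1 both left out, and the cause was not tested. Leaving out 1 library at a time it ranged from 1 to 6, the count of members lower from 3 to 8, and the genes called in that comparison from 878 to 3395. For AKI_PBS against sham the same ranges were 11 to 14 members higher and 8 to 11 lower, and for AKI_PTPi_mEVs against AKI_PBS 4 to 8 higher and 12 to 19 lower. Samples with the same replicate number did not deviate together strongly (correlations of -0.19 to 0.11 between pairs). These values cannot exclude a pairing, and the labels state none. With a replicate block the members called were 13 higher and 10 lower, 8 higher and 17 lower, and 4 higher and 6 lower in the 3 comparisons. Under it Col1a2 was called lower in AKI_PBS than in sham (-0.61), Col3a1 (0.74) and Col15a1 (0.64) were called higher with vesicles than with PBS, and Col1a1 was called higher with vesicles than in sham (1.04), while Lamb1 and Lamc1 lost their calls against sham (0.50 and 0.40). Further calls that changed in AKI_PBS against sham were gained by Col14a1 with DESeq2 (-0.76), limma voom (-0.80), no low-count filter (-0.80) and only the groups compared (-0.76). In AKI_PTPi_mEVs against AKI_PBS, calls were lost by Col1a1 with no low-count filter (1.45), Col1a2 with library totals (0.64), Eln with limma voom (-0.95), Tagln with only the groups compared (-1.01), and Col5a2 and Col14a1 with limma voom (-0.66 and -0.91) and with only the groups compared (-0.72 and -0.88), and gained by Col3a1 with DESeq2 (0.79) and Acta2 with no low-count filter (-0.46). In AKI_PTPi_mEVs against sham, Col4a2, Lamb1 and Lamc1 lost their calls with library totals (0.44, 0.47 and 0.37). They also lost them with the stricter low-count filter (0.43, 0.46 and 0.36). Calls there were gained by Col1a1 with only the groups compared (1.06) and by Mgp with no low-count filter (-0.82). Genes of few counts, such as Lum and Thy1, are limited by depth.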

Other observations

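Some matrix genes outside the 44 moved further in AKI_PBS against sham than any of the 44. Of those named here, Col13a1 and Adamts4 had few counts in sham, 20 and 11 in all, so the size of their changes is less certain. Col13a1, a transmembrane collagen, rose by 4.43 ± 0.46 in AKI_PBS against sham and was lower in AKI_PTPi_mEVs than with PBS (-3.44 ± 0.42). Adamts4, a proteoglycan-cleaving protease, stood at 0.588, 0.186 and 0.305 CPM in sham, 42.4, 48.7 and 21.6 CPM in AKI_PBS and 6.15, 4.69 and 1.76 CPM in AKI_PTPi_mEVs, with no overlap between any groups. It remained above sham with vesicles (3.53 ± 0.61, edgeR adjusted p = 0.0036). Spp1, osteopontin, rose by 2.53 ± 0.25 with injury and was not called between vesicles and PBS (-0.28 ± 0.24), with 2.25 ± 0.25 against sham. Col12a1, a collagen on fibril surfaces like Col14a1, rose by 2.06 ± 0.22 and was lower with vesicles than with PBS (-1.07 ± 0.21), still above sham (0.99 ± 0.22).

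Of the collagen-modifying enzymes, P3h2, a prolyl 3-hydroxylase, fell with injury by 1.34 ± 0.18 and Colgalt2, a collagen galactosyltransferase, by 2.08 ± 0.23. With vesicles both were higher than with PBS (1.42 ± 0.18 and 1.17 ± 0.24), P3h2 was not called against sham (0.07 ± 0.17), and Colgalt2 was below it (-0.91 ± 0.22, edgeR adjusted p = 0.0173). All differences given here as a rise, a fall, higher or lower were called. Col4a6, the remaining collagen IV chain, was picked after its values were seen: it was at -2.03 in AKI_PBS against sham and 1.91 in AKI_PTPi_mEVs against AKI_PBS, both called.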
